A study of Mus musculus with 6 samples.

Results

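The myeloid colony-stimulating factors and their receptors were followed in mouse hearts 72 h after ischemia-reperfusion (IR). They were taken as 8 genes by name: the ligand genes Csf1 and Csf3, and the receptor genes Csf1r, Csf2ra, Csf2rb, Csf2rb2, Csf3r and Flt3. All 17 array probes that the platform annotation assigns to them were used, of 45281 probes in the deposited table. The IR hearts came from male wild type C57Bl6 mice on regular chow, which were anesthetized with ketamine and sodium pentobarbital, had the left anterior descending coronary artery tied for 90 min through an opened sternum, and were reperfused for 72 h (3 days). The uninjured hearts came from mice of the same strain and sex that had no surgery according to the labels, whereas the column names of the deposited table call these arrays sham, and the sources used here do not settle which holds. If the controls were not operated on, effects of anesthesia and surgery cannot be told apart from those of IR. Each group had 3 arrays, 106, 107 and 886 for IR and 109, 110 and 904 for uninjured, and ages were not given. No label ties an array to its own animal, so the p-values here reflect array-to-array spread that could be technical.

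Colony-stimulating factors are secreted proteins that govern the survival, growth and maturation of myeloid cells. CSF1, made by stromal cells such as fibroblasts and endothelial cells, acts through the receptor tyrosine kinase CSF1R on monocytes and macrophages, including those that reside in the heart. GM-CSF acts through a receptor made of the specific alpha chain CSF2RA and the beta chain CSF2RB, which the receptors for IL-3 and IL-5 share. Mice carry a second, closely related beta chain gene, Csf2rb2, whose product serves IL-3 alone. G-CSF, encoded by Csf3, drives neutrophil production through CSF3R, and FLT3 is the receptor for FLT3 ligand on early progenitors and dendritic cell precursors.

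Transcripts of 4 receptor genes were higher on every IR array than on any uninjured array: Csf3r, Csf2ra, Csf2rb2 and Csf1r. The same held for 40.7% of all genes tested, and Csf3r and Csf2rb2 entered the tests through the IR arrays alone. In bulk RNA, more cells of a type and more RNA per cell cannot be told apart. The ligand transcript Csf1 was measured in both groups and did not differ beyond its spread. Csf3, Csf2rb and Flt3 lay at background in both groups, each with at most 1 array above it. These statements rest on normalized log2 intensities, and a probe counts as detected on an array at a detection p-value under 0.05. Of the 17 probes, 10 were detected on at least 3 of the 6 arrays and entered the tests, which leaves Csf3, Csf2rb and Flt3 without a tested value. Levels are comparable between arrays for 1 probe, not between probes.

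**Figure D1:**
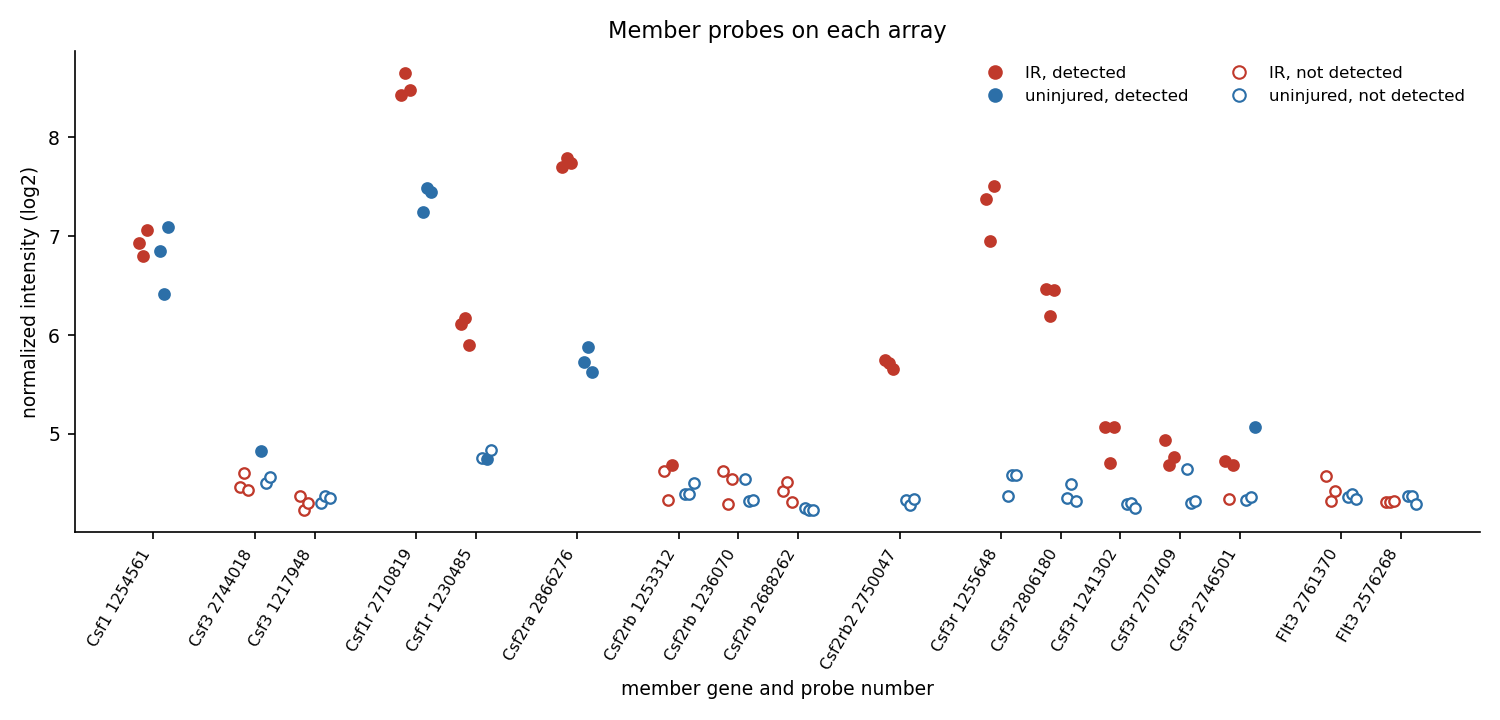
Normalized log2 intensity (y axis) of each of the 17 member probes (x axis, gene and probe number), with 1 point per array, the 3 IR arrays in red to the left and the 3 uninjured arrays in blue to the right; filled points are detected at a detection p-value under 0.05. The IR points of the brightest Csf3r, Csf2ra, Csf2rb2 and Csf1r probes sit above the uninjured ones, the Csf1 points intermingle, and the Csf3, Csf2rb and Flt3 points lie near the bottom of the scale.

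Change was common in these hearts, which sets the background for each member. Of 10204 genes tested with limma, 4022 rose in IR hearts at an adjusted p under 0.05, or 39.4%, and 3523 fell, or 34.5%. Between 18013 and 19243 probes were detected on the IR arrays, against 15891 to 17843 on the uninjured arrays. Rising genes made up 53.3% of calls after quantile normalization, 77.4% after scaling to the all-probe median and 42.6% after scaling to the kept-probe median. Across all genes the middle log2 fold change stood at 0.05 with the first, 0.52 with the second and -0.14 with the last. The heart muscle genes Myh6, Actc1, Tnni3, Ryr2, Myl2 and Myl3 were detected on all arrays of both groups. On their brightest probes all but Actc1 fell in IR hearts, at a median log2 fold change of -1.41 over the 6 genes. A second Actc1 probe had -0.43 (limma, adjusted p = 0.0018 over the kept probes). All 6 genes fell under kept-probe median scaling and by the mean of kept probes.

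Csf1 encodes the main growth factor of macrophages. Its single probe gave normalized log2 intensities of 6.93, 6.80 and 7.06 on IR arrays 106, 107 and 886, against 6.85, 6.42 and 7.10 on uninjured arrays 109, 110 and 904. The groups overlapped on this scale: the lowest and the highest value were both from uninjured hearts. In deposited signal units every IR array was higher, at 218, 209 and 234 on arrays 106, 107 and 886 against 152, 132 and 171 on arrays 109, 110 and 904. The 75th percentile of all probes in those units was higher too, at 135 to 138 on IR arrays against 109 to 111 on uninjured arrays. The normalized means were 6.93 ± 0.13 in IR and 6.79 ± 0.34 in uninjured hearts (SD, n = 3 each). Their log2 fold change was 0.14 with a 95% interval of -0.26 to 0.54 (limma, adjusted p = 0.472). The value turned to -0.04 without uninjured array 110. Under all-probe median scaling it was 0.80 (adjusted p = 7.83e-05), where the median of all genes was itself 0.52.

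Csf3, the G-CSF gene, had 2 probes. The brighter one gave 4.46, 4.61 and 4.44 on IR arrays 106, 107 and 886, against 4.83, 4.50 and 4.57 on uninjured arrays 109, 110 and 904. Of these 6 values 1 was detected, that of uninjured array 109 at a detection p-value of 0.047. The other probe was detected on 0 of 6 arrays. In a fit of all probes without a detection filter, their log2 fold changes were -0.13 ± 0.10 and -0.04 ± 0.06 (SE), with limma adjusted p-values of 0.466 and 0.731, where 14.5% of all probes rose and 13.2% fell. A difference in Csf3 was not detectable at this signal.

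Csf3r, the receptor for G-CSF that neutrophils carry, had the largest fitted change among the members measured. Its brightest probe read 270.1, 225 and 293 in deposited signal units on IR arrays 106, 107 and 886, against 82.2, 85.04 and 88.4 on uninjured arrays 109, 110 and 904. After normalization these became 7.38, 6.95 and 7.51 in IR and 4.37, 4.58 and 4.59 in uninjured hearts on the log2 scale. All 3 IR values were detected and none of the 3 uninjured values was, so the probe has only a bound there. It was at least 5.60-fold higher in IR hearts, with a fitted log2 fold change of 2.77 ± 0.15 (SE, n = 3 each, adjusted p = 2.4e-06).

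The 5 Csf3r probes gave unequal values. The next brightest read 6.47, 6.19 and 6.45 on IR arrays 106, 107 and 886, against 4.35, 4.49 and 4.32 on uninjured arrays 109, 110 and 904, and was at least 2.98-fold higher. Probe ILMN_1241302, also not detected on uninjured arrays, was at least 1.11-fold higher. Probe ILMN_2707409, likewise undetected there, had a bound of 1.00-fold and thus showed no rise against it. The fifth probe, ILMN_2746501, had a mean of 4.58 in IR and 4.59 in uninjured hearts, a difference of -0.0042 ± 0.21 on the log2 scale (adjusted p = 0.987), and was detected on 2 IR arrays and 1 uninjured array. Of the 18197 kept probes 36.5% rose, and 38.3% had all IR arrays above all uninjured arrays. The Csf3r probes that no uninjured array detected entered the tests through the IR arrays alone, so their count supports nothing further. By the mean of its 5 probes Csf3r had a log2 fold change of 1.16, below that of Csf2ra, against 2.77 on the brightest, and the brightest probe gave 1.32 without background correction.

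Csf2ra encodes the alpha chain that makes the GM-CSF receptor specific. Its single probe gave 7.70, 7.79 and 7.74 on IR arrays 106, 107 and 886, against 5.72, 5.88 and 5.63 on uninjured arrays 109, 110 and 904, and was detected on all 6 arrays. The groups were far apart relative to their spread, with means of 7.74 ± 0.05 in IR and 5.74 ± 0.13 in uninjured hearts (SD, n = 3 each). The log2 fold change was 2.00 ± 0.08 (SE), a 4.0-fold rise (adjusted p = 7.25e-07), and 95.1% of genes tested had a value no higher. Without background correction it was 1.20.

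The beta chain genes gave different readings. Csf2rb2, the beta chain of the mouse IL-3 receptor, read 5.75, 5.72 and 5.65 on IR arrays 106, 107 and 886, all detected, against 4.33, 4.28 and 4.34 on uninjured arrays 109, 110 and 904, none detected. It was at least 1.88-fold higher in IR hearts, with a fitted log2 fold change of 1.39 ± 0.06 (SE, adjusted p = 1.11e-06), or 0.54 without background correction. Csf2rb, the common beta chain that the GM-CSF receptor needs for signalling, had 3 probes, and 1 of their 18 array readings was detected, on IR array 886 at a detection p-value of 0.0288. Its brightest probe gave 4.63, 4.33 and 4.69 on IR arrays 106, 107 and 886, against 4.39, 4.39 and 4.50 on uninjured arrays 109, 110 and 904, and the groups overlapped. In the fit without a filter the log2 fold changes of the 3 probes were 0.12, 0.09 and 0.18, with adjusted p-values of 0.523, 0.677 and 0.0981. On the dimmest of them, never detected, every IR array exceeded every uninjured array, as in 19.2% of all probes. The 2 genes lie next to each other on chromosome 15 and are near-identical in sequence, so a probe for one may bind transcripts of the other, and the split of signal between them is uncertain.

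Csf1r, the CSF1 receptor of monocytes and macrophages, was detected in uninjured as well as IR hearts. Its brighter probe read 483, 561 and 501 in deposited signal units on IR arrays 106, 107 and 886, against 180.3, 210.1 and 201 on uninjured arrays 109, 110 and 904. On the normalized log2 scale these were 8.43, 8.65 and 8.48 in IR and 7.25, 7.49 and 7.44 in uninjured hearts. The rise was 2.19-fold, or 1.13 ± 0.10 on the log2 scale (SE, adjusted p = 2.62e-05). The second Csf1r probe read 6.11, 6.18 and 5.90 on IR arrays 106, 107 and 886, against 4.75, 4.74 and 4.84 on uninjured arrays 109, 110 and 904, where it was detected on array 110. Its log2 fold change was 1.28 ± 0.09 (SE, adjusted p = 1.11e-05 over the kept probes). Under all-probe median scaling the value of the brighter probe was 1.74. Without background correction the brighter probe gave 0.88 and the dimmer one 0.50, so how alike the probes are depends on the processing.

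Flt3, the receptor of early progenitors and dendritic cell precursors, had 2 probes, each detected on 0 of 6 arrays. The brighter one gave 4.57, 4.32 and 4.43 on IR arrays 106, 107 and 886, against 4.36, 4.39 and 4.34 on uninjured arrays 109, 110 and 904. The groups overlapped, and the log2 fold changes were 0.07 ± 0.07 and -0.03 ± 0.05 in the fit without a filter (SE, adjusted p = 0.589 and 0.776). A difference in Flt3 was not detectable at this signal.

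**Figure D2:**
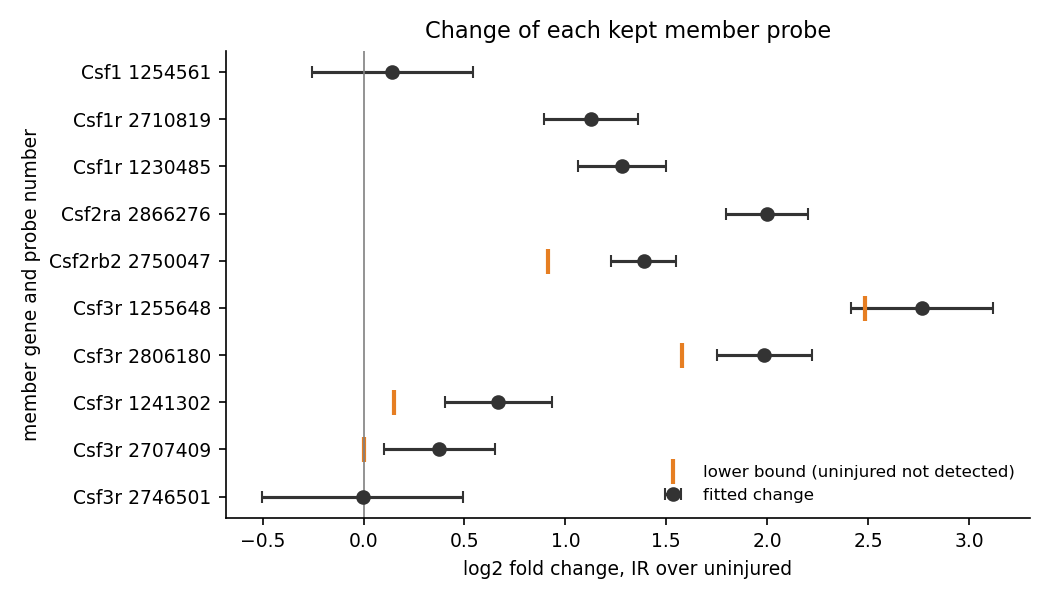
Log2 fold change of IR over uninjured hearts (x axis) for the 10 member probes that entered the tests (y axis), with points for the fit, bars for its 95% interval and orange marks for the lower bound where no uninjured array detected the probe. Csf2ra stands at 2.00, the Csf1r probes at 1.13 and 1.28, and the Csf3r probes spread between -0.0042 and 2.77.

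The bases before the start sites of Csf3r, Csf2ra and Csf2rb2 are shown here because these transcripts were higher in IR hearts, with Csf1, which did not pass the test, for comparison. RefSeq (GRCm38.p6) entries were matched for 5 of the 8 members, and no sequence of Csf1r, the other receptor gene that rose, is shown. The 250 bases upstream of the start site run 5′ to 3′ on the gene's strand and lie at chr4:126024409-126024658 (plus strand) for Csf3r, chr19:61228419-61228668 (minus strand) for Csf2ra, chr15:78305722-78305971 (minus strand) for Csf2rb2 and chr3:107760470-107760719 (minus strand) for Csf1. Capitals mark matches to GAGGAA, a core of sites for the myeloid factor PU.1, or to TTNNGNAA, a pattern of C/EBP sites, on either strand.
Csf3r: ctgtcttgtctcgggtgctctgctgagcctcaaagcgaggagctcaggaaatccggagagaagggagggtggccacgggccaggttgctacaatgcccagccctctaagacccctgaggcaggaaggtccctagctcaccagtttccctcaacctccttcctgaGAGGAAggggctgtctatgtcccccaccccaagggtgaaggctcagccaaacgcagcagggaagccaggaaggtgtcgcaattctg
Csf2ra: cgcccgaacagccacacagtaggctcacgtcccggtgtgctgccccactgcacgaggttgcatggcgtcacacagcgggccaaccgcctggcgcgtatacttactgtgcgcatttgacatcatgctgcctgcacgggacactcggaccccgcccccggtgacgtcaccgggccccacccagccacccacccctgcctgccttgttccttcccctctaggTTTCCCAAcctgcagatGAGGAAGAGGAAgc
Csf2rb2: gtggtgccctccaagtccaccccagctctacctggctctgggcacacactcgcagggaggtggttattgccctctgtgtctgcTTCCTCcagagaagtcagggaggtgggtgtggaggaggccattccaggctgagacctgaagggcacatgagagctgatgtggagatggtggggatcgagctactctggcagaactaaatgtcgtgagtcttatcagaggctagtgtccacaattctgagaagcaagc
Csf1: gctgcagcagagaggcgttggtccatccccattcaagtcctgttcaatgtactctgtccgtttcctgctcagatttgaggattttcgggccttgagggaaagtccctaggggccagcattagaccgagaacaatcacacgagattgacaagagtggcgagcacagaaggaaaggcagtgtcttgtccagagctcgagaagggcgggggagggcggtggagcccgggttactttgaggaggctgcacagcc

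Csf3r held 1 GAGGAA match, at 86 to 81 bases before the start. Csf2ra held 2 in a row, at 14 to 9 and 8 to 3 bases before the start, and 1 TTNNGNAA match on the opposite strand at 31 to 24 bases before it. Csf2rb2 held a GAGGAA match on the opposite strand at 167 to 162 bases before the start, and the 50 bases after the start held 1 more GAGGAA and 2 TTNNGNAA matches, one of these overlapping the GAGGAA match. Csf1 and Flt3 held 0 matches to either in the 300 bases searched. Of 32851 RefSeq windows of that length, 28.3% held GAGGAA and 40.7% held TTNNGNAA, so both are common, and a match is a description of the letters only.

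Of 9 other ligands and receptors that work beside the members, 4 were measured, of which 2 passed the test upward and 0 downward, at a median log2 fold change of 0.34, where 39.4% of all genes rose and 34.5% fell. Under kept-probe median scaling 2 passed upward and 2 downward, at a median of 0.10. Csf2 (GM-CSF), Flt3l (FLT3 ligand), Il3 and Il5 were detected on 0 of 6 arrays. Il34, the second ligand of CSF1R, had means of 4.75 in IR and 4.87 in uninjured hearts, a log2 fold change of -0.12 ± 0.22 (SE, adjusted p = 0.64) whose sign turned without uninjured array 904 (0.17) and which became a falling call under kept-probe median scaling (-0.56, adjusted p = 0.0237). Il3ra, the alpha chain that pairs with the beta chains for IL-3, was at least 2.22-fold higher in IR hearts. It was not detected in uninjured hearts and so was tested through the IR arrays alone. Kit, the receptor for stem cell factor, rose by 0.80 ± 0.09 on the log2 scale, while its ligand gene Kitl had -0.78 ± 0.38 (adjusted p = 0.101). Without uninjured array 904 the Kitl value was -1.32 (adjusted p = 0.000327), and Kitl passed the test in 6 of 16 alternatives.

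Genes of the signalling paths that these receptors use moved both ways. Of 19 genes listed, 14 were measured, 9 of which rose and 2 fell at a median log2 fold change of 0.73, against 39.4% rising, 34.5% falling and a median of 0.05 over all genes tested. Under kept-probe median scaling 8 rose and 4 fell, and under all-probe median scaling 11 rose and 2 fell. Tyrobp, an adaptor that links to CSF1R signalling in macrophages, rose by 3.67 ± 0.10. The docking protein gene Dok2 rose by 2.15 ± 0.13 and Plcg2, a phospholipase, by 1.66 ± 0.08. The kinase that GM-CSF, IL-3 and G-CSF receptors activate, Jak2, rose by 0.63 ± 0.09 on its brightest probe, and a second probe had 0.12 (adjusted p = 0.433). Stat5a, a transcription factor downstream of the GM-CSF receptor, fell by 0.98 ± 0.08 on its brightest probe, and a second probe had -0.35 (adjusted p = 0.0775). Pik3r1, a regulatory subunit of PI3-kinase, fell by 1.25 ± 0.11. Jak1 (-0.04), Stat3 (-0.01) and Grb2 (-0.18) did not pass, and Jak1 and Stat3 turned to 0.62 and 0.43 under all-probe median scaling. Under kept-probe median scaling Grb2 (-0.70, adjusted p = 0.000251) and Stat3 (-0.23, adjusted p = 0.0304) became falling calls. A second Jak1 probe had -0.76 (adjusted p = 0.000902) and another Stat3 probe -0.41 (adjusted p = 0.0138). Dok1 and Pik3cd, not detected in uninjured hearts on the probes used and so tested through the IR arrays alone, were at least 5.42-fold and 2.27-fold higher.

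Genes that restrain these receptors also moved both ways. Of 13 listed, 7 were measured, 5 of which rose and 2 fell, at a median log2 fold change of 1.96, against 39.4% rising and 34.5% falling over all genes. Sla, an adaptor that lowers receptor levels, rose by 3.27 ± 0.17 on its brightest probe, with 0.74 and 0.62 on its other kept probes. Ptpn6, the phosphatase SHP-1 that limits myeloid growth factor signals, rose by 3.00 ± 0.11, and Inpp5d, the lipid phosphatase SHIP1, by 1.96 ± 0.11. Inpp5d was detected on 1 uninjured array and needed the IR arrays to pass the filter. Within the SOCS family members went opposite ways: Socs3, which binds and inhibits the G-CSF receptor, had means of 8.51 in IR and 5.77 in uninjured hearts, a rise of 2.74 ± 0.11, whereas Cish, a target gene of STAT5, had 9.15 in IR and 10.6 in uninjured hearts and fell by 1.42 ± 0.08. Socs2 fell by 0.51 ± 0.12, a call lost under all-probe median scaling (-0.09, adjusted p = 0.613).

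Of 9 listed transcription factors of the myeloid lineage 6 were measured, 4 of which rose and 1 fell, at a median of 1.19, against the same 39.4% and 34.5%. Irf8, needed for monocyte development, rose by 1.85 ± 0.09, and Spi1, which encodes PU.1, rose by 1.13 ± 0.23. Spi1 was detected on 1 uninjured array, needed the IR arrays to pass the filter, and its size rests on uninjured values near background. Runx1 and Cebpa were not detected in uninjured hearts, entered the tests through the IR arrays alone and were at least 2.89-fold and 1.95-fold higher. Klf4 fell by 1.31 ± 0.10. Cebpb, at 0.15 (adjusted p = 0.16), did not pass and turned to -0.08 under kept-probe median scaling.

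**Figure D3:**
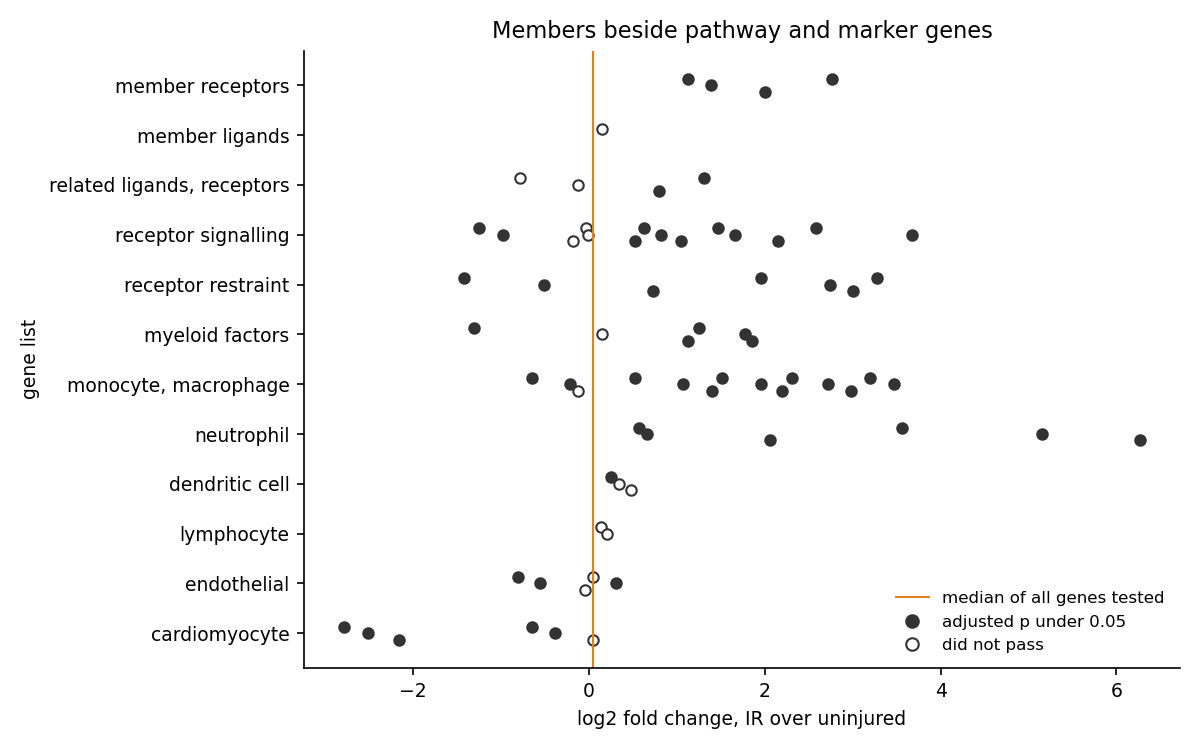
Log2 fold change of IR over uninjured hearts (x axis) for each measured gene of the member and pathway lists and of some marker lists (y axis). Each gene is 1 point, filled where the adjusted p was under 0.05, with the median of all genes (0.05) as a line. The marker lists drawn are monocyte and macrophage, neutrophil, dendritic cell, lymphocyte, endothelial and cardiomyocyte. The 4 measured member receptors lie between 1.13 and 2.77, within the ranges of the monocyte and macrophage (-0.65 to 3.46) and neutrophil (0.57 to 6.27) markers. They also lie within the range of the fibroblast markers (0.01 to 3.87), which are not drawn. The cardiomyocyte markers run from -2.79 to 0.04.

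Markers of the cells that carry these receptors, and of other heart cells, are given beside them, where 39.4% of all genes rose and 34.5% fell. Of 17 monocyte and macrophage markers 14 were measured, of which 11 rose and 2 fell. Among those that rose, Itgam and Ccr2 were undetected in uninjured hearts and entered through the IR arrays alone. Fcgr1 was detected on 1 uninjured array and also needed the IR arrays to pass the filter. The summed normalized intensity of the 14 was 19320 to 20800 in IR and 4354 to 4861 in uninjured hearts. Such sums are carried by the brightest probes of a list, here Lyz2 at a mean of 13.3 on the log2 scale in IR hearts. The macrophage gene Adgre1 rose by 2.98 ± 0.11 and Lyz2, lysozyme, by 3.19 ± 0.10. The 2 that fell were Lyve1, a marker of resident macrophages, by 0.65 ± 0.17, and Ly6c1, by 0.22 ± 0.06. Cd163 did not pass (-0.13, limma, adjusted p = 0.704), and Mertk and Cx3cr1 were among those that rose (1.40 and 1.52). Whether resident macrophages changed in number was not tested. Under all-probe median scaling 0 of these markers fell. Of 13 neutrophil markers 6 were measured and rose, or 4 of them under kept-probe median scaling. However, Cxcr2, Retnlg and Mpo were undetected in uninjured hearts and entered through the IR arrays alone. Retnlg and Mpo had bounds of only 1.14-fold and 1.05-fold. S100a8 and S100a9 were detected on 1 uninjured array each and also needed the IR arrays to pass the filter. The count of rising neutrophil markers thus supports nothing further. The summed intensities of the 6 were 2884 to 4246 in IR and 142 to 178.6 in uninjured hearts. The brightest of these probes in IR hearts was that of S100a8, at a mean of 11.0 on the log2 scale. S100a8 rose by 6.27 ± 0.26, and Cxcr2, a chemokine receptor of neutrophils, was at least 2.85-fold higher, while the granule genes Ngp, Camp, Ltf and Mmp8 were detected on 0 of 6 arrays. Of 9 dendritic cell markers 3 were measured, and Zbtb46, detected on 1 uninjured array, rose by 0.25 ± 0.09. The sums of the 3 were 86.0 to 101 in IR and 61.9 to 80.7 in uninjured hearts. Itgax, Xcr1 and Ccr7 were detected on 0 of 6 arrays. Without uninjured array 904, without background correction or with the authors' values 0 of the 3 rose, and under all-probe median scaling 3 did, against 0 rising and 1 falling under kept-probe median scaling. Among endothelial markers 1 of 5 measured rose and 2 fell, or 3 rose and 0 fell under all-probe median scaling. With IR array 107 or 886 or uninjured array 109 or 904 left out, 0 rose. The gene that rose, Cdh5, had 0.30 on its brightest probe, and another Cdh5 probe had -0.43 (limma, adjusted p = 0.0018 over the kept probes). Among fibroblast markers 6 of 7 rose, or 5 with 1 falling under kept-probe median scaling. The count was also 5 with IR array 106 or 107 or uninjured array 109 or 110 left out. It was 5 again with robust and trended moderation, and with the authors' values with the replicate block. Postn entered through the IR arrays alone and had a bound of 0.96-fold, and thus showed no rise against it. Of 6 measured cardiomyocyte markers 5 fell, or 6 under kept-probe median scaling or by the mean of kept probes. Their sums were 41530 to 43760 in IR and 69500 to 70910 in uninjured hearts. Myh6, the alpha myosin heavy chain of heart muscle, fell by 2.79 ± 0.07 on its brightest probe. A second Myh6 probe had -4.55 (limma, adjusted p = 3.06e-07 over the kept probes). Tnni3, cardiac troponin I, fell by 2.51 ± 0.08. Myl2 read 14.2 with an SD of 0 on the uninjured arrays, and whether such bright probes were at a ceiling was not tested. The part of these cells in the values of the receptor and ligand genes was not tested, nor were the differences between the changes of markers and receptors.

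The genes whose pattern over the 6 arrays lay closest to each measured member were found by the Euclidean distance between mean-centred log2 values, over 9942 candidate genes. For Csf3r they were Psat1, D17H6S56E-5 and Pf4, at distances of 0.24 to 0.27. For Csf2ra they were Prr33, Slc39a11 and Medag, at 0.06 to 0.08. Csf2rb2 lay closest to Rps19, Akr1a1 and Rangap1, at 0.07 to 0.09, and Csf1r to Ctsa, Hivep3 and Zfp738, at 0.10 to 0.13. Csf1 lay closest to Septin10, Otub1 and Rpa2, at 0.13 to 0.18. All candidates share these 6 arrays, which fall into 2 groups, and the distances are a description with no test.

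**Figure D4:**
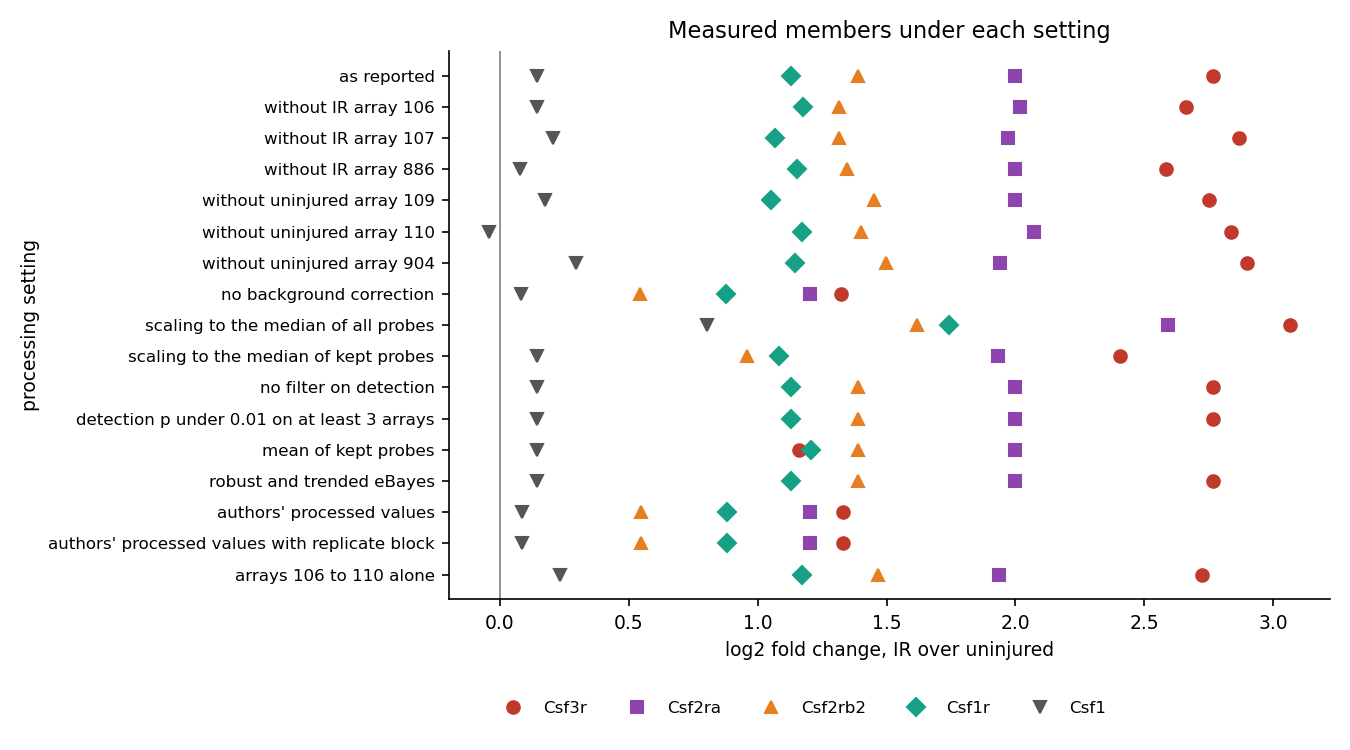
Log2 fold change of IR over uninjured hearts (x axis) of the 5 measured members under each processing setting (y axis), 1 point per gene and setting. The 4 receptor genes stay above 0.5 in every setting shown, Csf1 lies between -0.04 and 0.80, and Csf3r falls to 1.16 by the mean of its probes.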

How the data were processed

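Heart RNA carried a biotin label and was read on Illumina bead arrays, per the labels. For every array the deposited table gives, per the file headers, a mean bead intensity and a detection p-value for each probe. GenomeStudio 2010.3 is named in the submitters' processing notes, and whether background was subtracted is not given in the sources used here. The authors' processed values are intensities on a linear scale, quantile-normalized without centring as read from the values, and served only as an alternative. Array numbers in the column names match no sample title, so columns were assigned to groups by name only. By rank of the values, each processed sample matched 1 array (Spearman rho = 1). Uninjured replicates 1, 2 and 3 matched arrays 110, 904 and 109, and IR replicates 1, 2 and 3 matched arrays 106, 886 and 107.

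From the signal table, limma 3.58.1 in R 4.3.3 (statmod 1.5.0) ran neqc with background from the detection p-values, an offset of 16, quantile normalization and log2. Probes detected at p under 0.05 on at least 3 of 6 arrays were kept (18197). A gene took its brightest kept probe (10204 genes). Of all probes 34885 had 1 symbol, 18 several and 10378 none, with symbols updated through Entrez identifiers in RefSeq (GRCm38.p6). Groups were compared with lmFit and eBayes, without a block, with Benjamini-Hochberg adjustment over all genes, or over all kept probes for a probe value, at 0.05. Fold changes refer to intensity plus 16 and understate dim genes. A bound sets the IR mean against a floor averaged over uninjured arrays, each taking the dimmest detected probe or, where brighter, the probe itself. Precision is limited by the 3 arrays per group. Only the group comparison was tested on simulated data, with values drawn on the normalized scale for the genes kept. Normalization, the detection filter, the probe rule and the bounds were not tested in this way.

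Members and gene lists were chosen with earlier results of these data known. Named were all members, the pathway lists, and the 3 genes closest in pattern to each measured member, without other members and without genes named only by an accession, a clone or a prediction. Alternatives left out each array and changed the background correction, scaling, filter, probe rule, moderation and input values.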

Additional observations from a re-analysis of the deposited data

How the results depend on the processing

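The rises of Csf1r, Csf2ra, Csf2rb2 and Csf3r kept their direction and their call in each of 16 alternatives, at log2 fold changes of 0.88 to 1.74, 1.20 to 2.59, 0.54 to 1.62 and 1.16 to 3.06. Csf1 became a call under all-probe median scaling (0.80), where 6091 genes rose and 1779 fell, and ranged from -0.041 to 0.30 with 1 array left out. Between 7055 and 7560 genes changed with 1 array left out. Without background correction and with the authors' values, changes of dim probes shrank: Csf3r was 1.32 and 1.33 and Csf2rb2 0.54 and 0.55. With the replicate number as a block on the authors' values, 7435 genes changed against 7529 without it, and no member's call changed (Csf1 0.086, Csf1r 0.88, Csf2ra 1.20, Csf2rb2 0.55, Csf3r 1.33). Same-numbered samples did not deviate together (correlations across genes of -0.034, -0.0095 and -0.071), and no IR sample correlated best with its own number. No pairing by number was thus visible in the values. With 3 samples per group this cannot tell whether equal numbers mark samples that were handled together. Signs turned for Il34 (-0.30 to 0.17 with 1 array left out, 0.10 under all-probe median scaling, 0.18 with arrays 106 to 110 alone), which became a call under kept-probe scaling (-0.56), Jak1 (0.62) and Stat3 (0.43) under all-probe median scaling, Stat3 (-0.045 to 0.031 with 1 array left out, 0.0038 with arrays 106 to 110 alone) and Cebpb (-0.075 under kept-probe scaling). The Csf3r probe ILMN_2746501, at -0.0042, took -0.14 to 0.26 with 1 array left out, 0.013 without background correction, 0.11 under all-probe median scaling, 0.015 with the authors' values with or without the block, and 0.19 with arrays 106 to 110 alone, and became a call at -0.55 under kept-probe scaling. Probe ILMN_2707409 of Csf3r (0.38, adjusted p = 0.0227) turned to -0.20 under kept-probe scaling and lost its call when any of arrays 106, 886, 110 and 904 was left out, without a filter, and with arrays 106 to 110 alone. Probe ILMN_1241302 (0.67) lost its call under kept-probe scaling (0.11). Kitl became a call in 6 alternatives (-0.31 without background correction, -1.15 under kept-probe scaling, -0.32 with the authors' values with or without the block, -1.32 without uninjured array 904, -1.36 with arrays 106 to 110 alone). Grb2 (-0.70) and Stat3 (-0.23) became calls under kept-probe scaling, Cebpb (0.58) under all-probe median scaling and Jak1 (-0.40) by the mean of its kept probes. Fyn lost its call under kept-probe scaling (0.036) and Socs2 under all-probe median scaling (-0.091). The dimmer Csf1r probe gave 0.50 without background correction. The cause of these moves was not tested. Il34 and Grb2 had no value at the stricter detection threshold.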

Other observations

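Csf3r and Csf1r were ordered differently among the IR arrays. IR array 107 had the lowest value of the 3 IR arrays on 5 of 5 Csf3r probes and the highest on 2 of 2 Csf1r probes. The same array had the lowest IR value for 5 of 6 measured neutrophil markers and the highest for 10 of 14 measured monocyte and macrophage markers. Array 107 was also highest for 5 of 7 fibroblast markers (lowest for 1) and 4 of 6 cardiomyocyte markers (lowest for 1). It was lowest for 3 of 4 mast cell markers (highest for 0) and 7 of 14 signalling genes (highest for 2). Such an order was thus not limited to myeloid markers, and its share over all genes was not computed. Cxcr2, the neutrophil chemokine receptor, read 6.58, 5.83 and 6.51 on IR arrays 106, 107 and 886. These are 3 arrays in 1 group, the probes of a gene share their RNA, and no test was made.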
